A study of Homo sapiens with 6 samples.

Results

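The E2F genes E2F1 to E2F8, with FOXM1 and MYBL2, encode transcription factors of the cell division cycle. They were taken by gene symbol and are 10 of the 58299 genes counted in AC16 cells, a human line made by fusing adult ventricular heart cells with SV40-transformed fibroblasts. Treated cells (3 libraries) received 100 nM CDDO-Me for 24 h and then 100 nM doxorubicin for 48 h, and control cells (3 libraries) were kept in 0.1% DMSO for 72 h. CDDO-Me is a triterpenoid that activates the antioxidant regulator NRF2, and doxorubicin belongs to the anthracyclines, which hold topoisomerase II in its DNA-cleaving state. Cells given 1 drug alone were not analysed here, so no difference below can be assigned to CDDO-Me or to doxorubicin. The series' title places the comparison in the question of whether CDDO-Me protects these cells from doxorubicin. The labels do not tell whether the replicates came from separate cultures, nor whether CDDO-Me was removed before the second drug. The p-values thus cover only library-to-library spread, which may be technical.

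E2F proteins bind DNA mostly as dimers with a DP protein. E2F1, E2F2 and E2F3 switch on genes of the G1/S transition until the retinoblastoma protein RB1 binds them, whereas E2F4 and E2F5 act mainly with the related pocket proteins RBL1 and RBL2 to keep such genes silent in resting cells. E2F6 represses through polycomb complexes, and E2F7 and E2F8 are atypical repressors that bind DNA without a DP partner. FOXM1 and MYBL2 (B-MYB) act later in the cycle, on G2/M genes, where they join the MuvB complex. E2F7 is a known p53 target gene. Large T antigen of SV40 binds pocket proteins and p53, and whether it was made in these cells was not analysed here.

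All 10 genes were expressed above the minimum count and entered the test of 15575 genes. With edgeR's quasi-likelihood test and a Benjamini-Hochberg adjusted p below 0.05 over all genes tested, 5 were higher in treated cells (E2F1, E2F2, E2F3, E2F7 and E2F8), 3 were lower (E2F4, E2F5 and FOXM1) and 2 were not called (E2F6 and MYBL2). Of all genes tested, 63.5% were called, 32.3% higher and 31.2% lower, so 8 calls among 10 genes was not far from the background. The median log2 change of the 10 genes was 0.18, beside 0.02 over all genes tested. The activator and atypical genes were all higher and both genes of the pocket-bound repressors were lower. In bulk RNA, fewer cells that express a gene and less of its RNA per cell cannot be told apart.

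**Figure D1:**
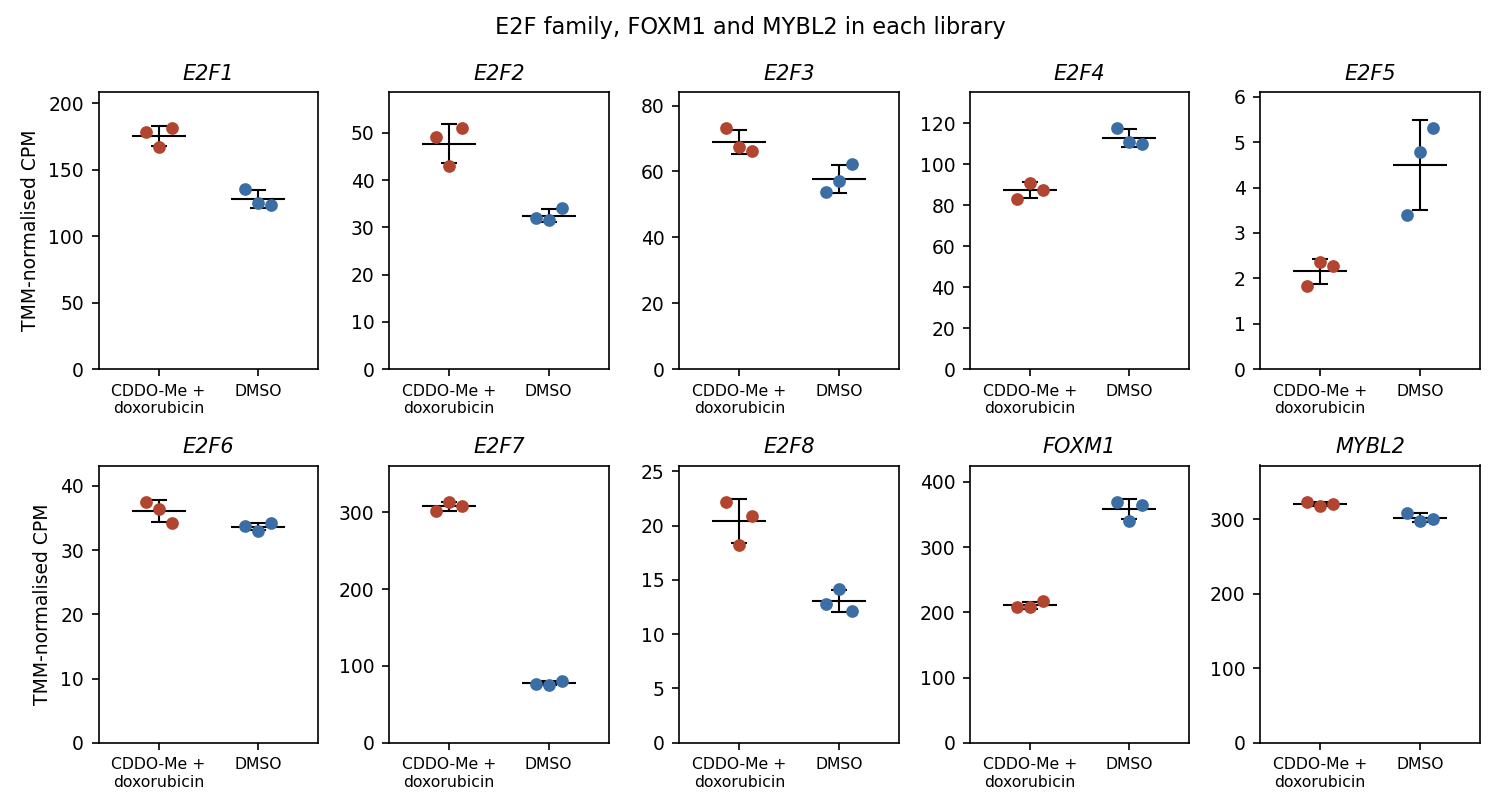
TMM-normalised CPM (vertical axes, each starting at 0) of the 10 genes in the 3 treated and the 3 control libraries. Points are libraries and bars the mean ± SD. The groups did not overlap in any panel, nor did they in 66.7% of all genes tested. Those of E2F6, which was not called, nearly touched, at 34.21 CPM (lowest treated) against 34.16 CPM (highest control). E2F7 shows the widest gap on this scale, with 302 to 314 CPM in treated cells against 75.2 to 80.4 CPM in controls.

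Levels are given as CPM, the count of a gene relative to the library total, normalised by TMM (trimmed mean of gene ratios between libraries), and each log2 change (treated over control) comes with a standard error (SE). E2F7 (ENSG00000165891, GRCh38 chromosome 12, 77021247 to 77065580, minus strand) changed most of the family. It had 302, 314 and 308 CPM in the treated libraries, against 77.1, 75.2 and 80.4 CPM in the controls. Every treated library stood far above every control, with a log2 change of 1.99 (SE 0.051, edgeR adjusted p = 4.31e-42). The count of E2F7 was 6275 to 6523 per treated library and 1243 to 1485 per control library, so counting error was small beside the difference. Ordered by log2 change from the highest, it stood at place 682 among the genes tested. E2F8 (ENSG00000129173, chromosome 11, 19224063 to 19241620, minus strand), its paralog, had 22.2, 18.3 and 20.9 CPM in treated cells, against 12.8, 14.1 and 12.2 CPM in controls. Its log2 change was 0.65 (SE 0.10, edgeR adjusted p = 9.81e-08), on 371 to 461 counts per treated library and 223 to 234 per control library. The groups did not overlap, and the treated libraries spread more widely than the controls.

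The 250 bases before the RefSeq start of E2F7 (GRCh38.p14, chr12:77065570-77065819, minus strand) are shown because the gene moved most. RefSeq windows of this kind were found for 7 of the 10 genes, with 8 windows in all because E2F3 has starts in 2 places. E2F5, E2F8 and FOXM1 had no window and were not searched.
E2F7: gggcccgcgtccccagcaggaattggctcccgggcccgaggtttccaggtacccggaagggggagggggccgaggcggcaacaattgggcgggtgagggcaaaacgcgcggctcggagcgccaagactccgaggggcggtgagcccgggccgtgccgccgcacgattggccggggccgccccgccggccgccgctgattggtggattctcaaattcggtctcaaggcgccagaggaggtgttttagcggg
No capitals appear in it, since neither the 8-letter E2F motifs TTTCGCGC, TTTGGCGC, TTTCCCGC and TTTGCCGC nor the 7-letter core GGCGGGA was found on either strand. It holds 4 copies of the 5-letter CCAAT box, the sequence bound by NF-Y, all on the reverse strand and starting 229, 167, 86 and 54 bases before the start. A CCAAT box stood in 32% of 35116 windows of the same length and in 3 of the 8 members' windows, with 4 copies in that of E2F3 as well and 3 in that of E2F1.

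The activators rose together and by less. E2F1 (ENSG00000101412, chromosome 20, 33675683 to 33686404, minus strand), the founding member and itself an E2F target, had 178, 167 and 181 CPM in treated libraries, against 136, 125 and 123 CPM in controls. The groups did not overlap, and the log2 change was 0.45 (SE 0.051, edgeR adjusted p = 1.1e-11). E2F2 (ENSG00000007968, chromosome 1, 23506430 to 23531220, minus strand) had 49.1, 43.1 and 51.0 CPM in treated cells, against 31.9, 31.6 and 34.1 CPM in controls. Its log2 change was 0.55 (SE 0.072, edgeR adjusted p = 9.35e-10), with all treated libraries above all controls. E2F3 (ENSG00000112242, chromosome 6, 20401906 to 20493715, plus strand) had 73.1, 67.6 and 66.2 CPM in treated cells, against 53.8, 57.1 and 62.3 CPM in controls. Its change was the smallest of those called, 0.26 on the log2 scale (SE 0.062, edgeR adjusted p = 3.12e-04), and its highest control lay close below its lowest treated library. E2F3 makes a long and a short protein from separate starts, and a count per gene does not separate them.

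The windows of these 3 genes are shown because the genes rose together and are known to be E2F targets. Capitals mark the E2F motifs and the GGCGGGA core, on either strand.
E2F1: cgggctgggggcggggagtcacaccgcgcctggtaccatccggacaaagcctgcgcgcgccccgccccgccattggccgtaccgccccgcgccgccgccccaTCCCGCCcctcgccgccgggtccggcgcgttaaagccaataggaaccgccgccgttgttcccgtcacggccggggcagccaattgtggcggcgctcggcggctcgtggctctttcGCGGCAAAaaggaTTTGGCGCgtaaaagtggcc
E2F2: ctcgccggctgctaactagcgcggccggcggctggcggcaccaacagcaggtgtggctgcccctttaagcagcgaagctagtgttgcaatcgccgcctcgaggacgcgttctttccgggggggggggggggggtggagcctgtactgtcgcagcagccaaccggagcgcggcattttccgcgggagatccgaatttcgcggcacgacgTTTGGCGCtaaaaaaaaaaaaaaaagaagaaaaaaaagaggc
E2F3: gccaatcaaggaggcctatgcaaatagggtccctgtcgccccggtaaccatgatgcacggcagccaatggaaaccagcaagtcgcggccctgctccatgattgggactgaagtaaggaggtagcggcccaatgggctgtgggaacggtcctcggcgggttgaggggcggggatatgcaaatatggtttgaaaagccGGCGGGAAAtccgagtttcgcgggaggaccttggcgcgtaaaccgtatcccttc
These windows lie at chr20:33686386-33686635 (E2F1, minus strand), chr1:23531234-23531483 (E2F2, minus strand) and chr6:20401629-20401878 (E2F3, plus strand, the start of the long form). E2F1 held 2 of the 8-letter motifs, starting 33 and 20 bases before the start, and a core at 148 bases. E2F2 held 1, at 42 bases. E2F3 held 1 at 53 bases, which overlaps a GGCGGGA core at 54 bases. Of the 8 windows, 3 held an 8-letter motif, all of them from genes of the activators. Whether E2F5, E2F8 and FOXM1, which had no window, hold one was not examined. Of the 35116 RefSeq windows, 2.79% held one and 13.5% held the core. The core was in 4 of the 8 members' windows, among them that of the second E2F3 start, which held 2, at 133 and 38 bases. The CHR letters TTTGAA or TTCGAA, known from G2/M promoters, were in 14.3% of all windows and in 1 of the 8, that of E2F3. These matches are letters and no measurement of binding.

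E2F4 and E2F5 fell. E2F4 (ENSG00000205250, chromosome 16, 67192169 to 67198918, plus strand), the main E2F of resting cells, had 83.2, 90.9 and 87.4 CPM in treated libraries, against 118, 111 and 109.6 CPM in controls. No treated library reached the lowest control, and the log2 change was -0.37 (SE 0.054, edgeR adjusted p = 2.02e-08). E2F5 (ENSG00000133740, chromosome 8, 85177225 to 85217158, plus strand) was the least abundant of the family, with 38, 48 and 48 counts in treated libraries and 59, 79 and 98 counts in controls. That is 1.83, 2.36 and 2.26 CPM in treated cells, against 3.39, 4.78 and 5.31 CPM in controls, a log2 change of -1.06 with a wide error (SE 0.22, edgeR adjusted p = 1.91e-05). The groups did not overlap, but the controls differed among themselves more than those of any other member did in proportion to their level. Of the exon bases of E2F5, 18.6% lay in exons of other genes, mostly RBIS on the other strand (969 bases). The libraries carry no strand information, so reads there cannot be assigned to one gene. RBIS itself did not pass the test, at -0.09 on the log2 scale (SE 0.20, edgeR adjusted p = 0.701).

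E2F6 (ENSG00000169016, chromosome 2, 11444375 to 11466177, minus strand), the polycomb-linked repressor, was not called. It had 37.5, 36.5 and 34.2 CPM in treated libraries, against 33.7, 33.01 and 34.2 CPM in controls, a log2 change of 0.10 (SE 0.073, edgeR adjusted p = 0.232). The lowest treated library and the highest control were nearly equal. With libraries scaled by their totals only, which moved the median of all genes by 0.13 on the log2 scale, E2F6 was called higher (0.23, edgeR adjusted p = 0.00582). Over all alternatives its adjusted p ran from 0.00582 to 0.491.

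FOXM1 fell and MYBL2 was not called. FOXM1 (ENSG00000111206, chromosome 12, 2857681 to 2877155, minus strand), the forkhead factor of mitotic genes, had 208, 208 and 217 CPM in treated libraries, against 370, 340.4 and 364 CPM in controls. The treated libraries lay close together and far below the controls, with a log2 change of -0.76 (SE 0.047, edgeR adjusted p = 3.26e-22). Of its exon bases, 15.9% (781 bases) lay in exons of ITFG2 on the other strand, which did not pass the test at -0.10 on the log2 scale (SE 0.076, edgeR adjusted p = 0.252). MYBL2 (ENSG00000101057, chromosome 20, 43667019 to 43716496, plus strand) had the highest level per length of the 10 genes in both groups, as given below in TPM. It had 323, 317 and 320.3 CPM in treated cells, against 309, 297 and 299.5 CPM in controls. The libraries of the groups did not overlap, yet the log2 change was 0.09 (SE 0.046) and not called (edgeR adjusted p = 0.097). MYBL2 was called higher with upper-quartile factors (0.14, edgeR adjusted p = 0.00672), with library totals only (0.21, edgeR adjusted p = 3.04e-05) and when genes had to reach 1 CPM in 3 libraries (0.10, edgeR adjusted p = 0.0483). Its adjusted p over all alternatives ran from 3.04e-05 to 0.313. In all genes tested, the groups did not overlap in 66.7%, and they did not overlap in any of the 10 members.

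The window of MYBL2 (chr20:43666864-43667113, plus strand) is shown beside this because the gene is a known E2F target that was not called.
MYBL2: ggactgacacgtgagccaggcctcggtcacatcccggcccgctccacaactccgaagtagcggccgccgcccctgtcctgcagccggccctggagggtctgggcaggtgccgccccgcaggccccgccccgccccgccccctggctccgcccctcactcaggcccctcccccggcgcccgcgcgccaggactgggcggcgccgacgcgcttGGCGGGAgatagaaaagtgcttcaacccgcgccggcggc
It held no 8-letter E2F motif and 1 GGCGGGA core, in capitals, starting 39 bases before the RefSeq start. The gene as counted starts earlier, at 43667019, so the core lies inside the counted gene. The windows of E2F1, E2F6 and E2F7 also reached a short way into the genes as counted. The E2F motif of E2F1 nearest the RefSeq start lay mostly inside the counted gene. The window of the second E2F3 start lay wholly inside E2F3 as counted.

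**Figure D2:**
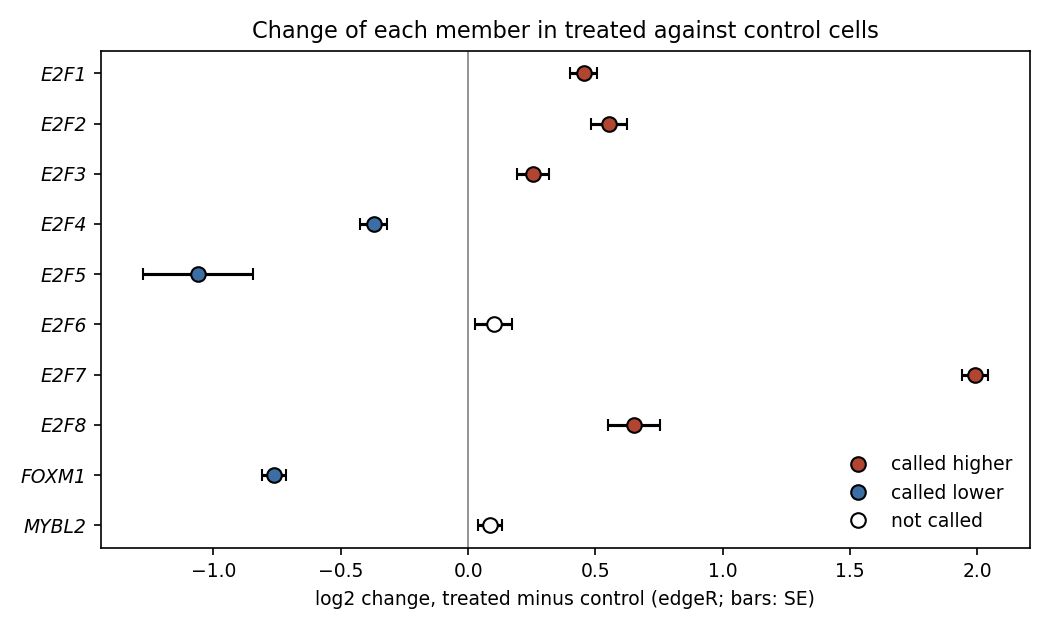
Log2 change (horizontal axis, treated minus control, edgeR) of the 10 genes, with bars for the SE and the fill of each point for the call. E2F7 at 1.99 lies apart from the other genes called higher, at 0.26 to 0.65, and E2F5 at -1.06 has the widest error.

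Levels can be compared between genes only per exon length, here as TPM, a length-scaled share of all transcripts, from the counts and the deposited gene lengths. In treated cells the order was MYBL2 (517 ± 7.86 TPM, SD, n = 3), E2F1 (314 ± 16.2 TPM), E2F7 (219 ± 3.61 TPM), FOXM1 (193 ± 6.56 TPM), E2F4 (109 ± 4.56 TPM), E2F3 (59.8 ± 3.09 TPM), E2F6 (39.7 ± 1.64 TPM), E2F2 (39.2 ± 3.71 TPM), E2F8 (22.1 ± 2.29 TPM) and E2F5 (1.63 ± 0.21 TPM). In controls it was MYBL2 (464 ± 7.35 TPM), FOXM1 (312 ± 13.4 TPM), E2F1 (218 ± 10.0 TPM), E2F4 (134 ± 4.28 TPM), E2F7 (52.5 ± 2.02 TPM), E2F3 (47.8 ± 3.83 TPM), E2F6 (35.3 ± 0.73 TPM), E2F2 (25.4 ± 1.19 TPM), E2F8 (13.5 ± 1.01 TPM) and E2F5 (3.24 ± 0.73 TPM). Neighbours whose libraries overlapped were E2F6 and E2F2 in treated cells, and E2F7 and E2F3 in controls. All other neighbours in the order had ranges that did not overlap. These ranges cover only the spread between libraries, while the order also rests on the deposited lengths. Of the exon bases of FOXM1, 15.9% were shared with another gene, and how reads there were counted is not known. The order of E2F7 and FOXM1 in treated cells is therefore uncertain. MYBL2 led in both groups, E2F7 stood at position 3 in treated cells and position 5 in controls, and FOXM1 stood at position 4 in treated cells and position 2 in controls.

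The make-up of E2F transcripts shifted toward the atypical genes. The 8 E2F genes summed to 784 to 821 TPM in treated libraries, against 521 to 541 TPM in controls. TPM is not scaled by TMM, so these sums depend on the scaling. E2F7 and E2F8 made up 29.6% to 30.7% of that sum in treated libraries, against 12.03% to 12.7% in controls. Nearly all of this was E2F7, at 26.6% to 28.2% in treated and 9.60% to 10.4% in control libraries, while E2F8 held 2.50% to 2.97% in treated and 2.39% to 2.80% in control libraries. The share of E2F4 and E2F5 was 13.04% to 14.6% in treated libraries, against 25.6% to 26.2% in controls. The share of the activators differed less, at 49.6% to 52.3% in treated and 54.7% to 55.3% in control libraries. On the TPM scale the summed atypical genes stood at 0.57 to 0.62 of the summed activators in treated libraries, against 0.22 to 0.23 in controls. FOXM1 stood at 0.36 to 0.38 of MYBL2 in treated libraries, against 0.65 to 0.69 in controls. These ratios are descriptions and carry no test. They do not depend on how libraries are scaled, since both sides come from the same library.

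**Figure D3:**
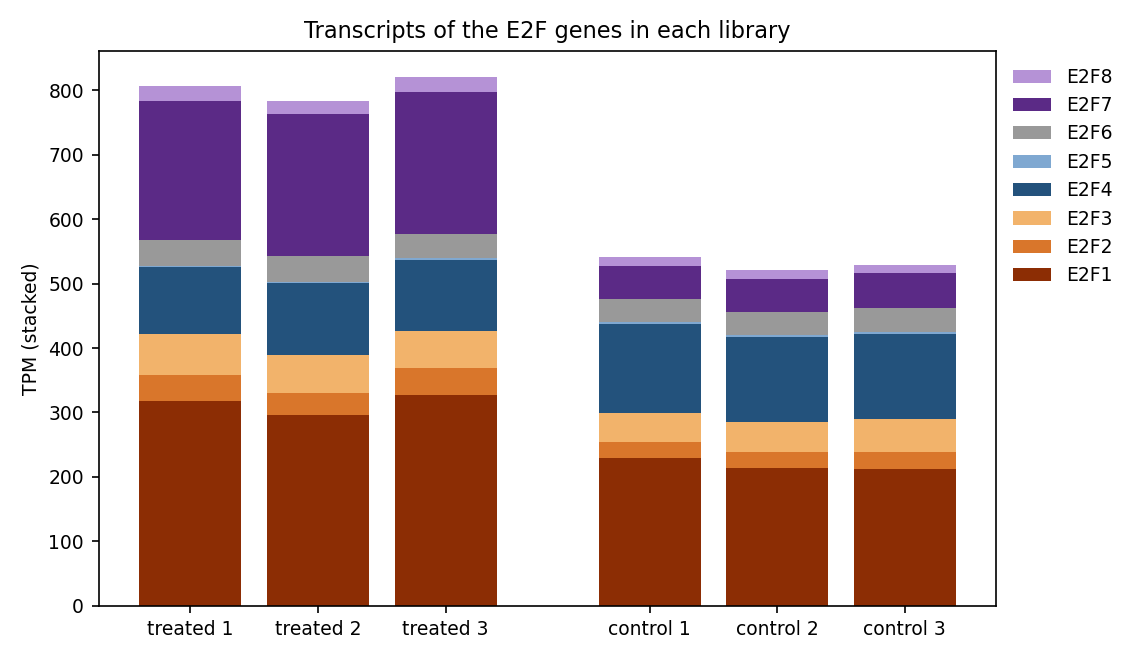
Stacked TPM (vertical axis, from 0) of the 8 E2F genes in each treated and control library. The summed bars reach 784 to 821 TPM in treated and 521 to 541 TPM in control libraries, and the band of E2F7 covers 26.6% to 28.2% of the treated and 9.60% to 10.4% of the control bars.

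The DNA-binding partners and the pocket proteins moved less than E2F7. Of 5 tested, TFDP2 was higher, RB1 and RBL1 were lower and the other 2 did not pass. With 60% called, beside 63.5% over all genes tested, these 5 did not stand out in number of calls. Their median log2 change was -0.06, and 0.07 when libraries were scaled by totals only. TFDP2, a DP partner, had 56.4, 48.8 and 49.2 CPM in treated cells, against 41.8, 41.3 and 39.3 CPM in controls (log2 change 0.34, edgeR adjusted p = 2.1e-05). TFDP1, the main DP partner, had 209 ± 2.92 CPM in treated and 219 ± 6.51 CPM in control cells (SD, n = 3) and was not called (edgeR adjusted p = 0.257). RB1 fell by 0.30 on the log2 scale, to 119 ± 4.55 CPM in treated cells against 146 ± 8.86 CPM in controls. RBL1 (p107), also an E2F target, fell by 0.40 on the log2 scale, to 66.4 ± 2.27 CPM in treated cells against 87.6 ± 4.14 CPM in controls. RBL2 (p130), the pocket protein of resting cells, had a log2 change of 0.11 and was not called (edgeR adjusted p = 0.0859). RBL2 was called higher with upper-quartile factors (0.16, edgeR adjusted p = 0.0101), library totals only (0.24, edgeR adjusted p = 2.19e-04) and a minimum of 1 CPM in 3 libraries (0.12, edgeR adjusted p = 0.0473). TFDP3 had 0 counts in all libraries.

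Of the MuvB core, which both the repressive DREAM complex and the B-MYB complex contain, 1 of 5 subunits was higher, 1 was lower and 3 were not called. That is 40% called, beside 63.5% over all genes tested. LIN54, the subunit that binds DNA at CHR sites, rose by 0.29 on the log2 scale, to 41.8 ± 3.07 CPM in treated cells against 34.2 ± 3.39 CPM in controls. LIN9 fell by 0.48 on the log2 scale, to 24.6 ± 2.88 CPM in treated cells against 34.2 ± 3.29 CPM in controls. LIN52 (log2 change -0.02), RBBP4 (0.03) and LIN37 (0.30, with 54.0% of its exon bases in exons of other genes) were not called. Of 10 subunits of PRC1.6, the polycomb complex that holds E2F6, 4 were lower, 1 was higher and 5 did not pass. With 50% called, these 10 were also not above the 63.5% over all genes tested. The median log2 change was -0.09, and 0.03 with library totals only. The ubiquitin ligase gene RNF2 fell most (log2 change -0.68, edgeR adjusted p = 3.74e-12), followed by CBX3 (-0.37), WDR5 (-0.27) and L3MBTL2 (-0.22). MAX rose by 0.31. PCGF6 (0.10), YAF2 (0.08), RYBP (0.002), MGA (-0.07) and RING1 (-0.12 on the log2 scale) were not called. With library totals only, RBBP4 (0.15) and PCGF6 (0.23) were called higher and L3MBTL2 (-0.09 on the log2 scale) was not called. RING1 was called lower without treated replicate 2 and without control replicate 1 (-0.16 on the log2 scale in each).

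The other MYB genes and the FOXO factors, forkhead proteins that oppose FOXM1, were mostly not called. Of these 6 genes, 16.7% were called, beside 63.5% over all genes tested. MYBL1 (A-MYB) had a log2 change of 0.08, MYB 0.04, FOXO1 0.24, FOXO4 -0.13 and FOXO6 0.42, and none of these passed the test. MYBL1 was called higher with upper-quartile factors (0.13) and library totals only (0.21). FOXO3 fell by 0.26 on the log2 scale, to 90.6 ± 2.70 CPM in treated cells against 108 ± 5.37 CPM in controls.

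Cyclins, cyclin-dependent kinases and their inhibitors set whether pocket proteins hold E2F. Of 19 listed genes, CCND2 (13 counts in treated libraries together, 0 in controls) was too low to test and CDKN1C passed the filter only through the treated libraries. Of the other 17, 6 were higher and 11 lower, beside 32.3% higher and 31.2% lower over all genes tested. CDK2 was the least certain, at -0.13 on the log2 scale (edgeR adjusted p = 0.022), and it was not called under upper-quartile factors, library totals only, 2 of the 6 fits with a library left out, or a threshold of 0.01. The p21 gene CDKN1A, whose product blocks these kinases, rose most, with 4012, 4480 and 4252 CPM in treated libraries, against 222, 221 and 203 CPM in controls (log2 change 4.30, edgeR adjusted p = 3.09e-59). The G1 cyclin genes CCNE1 (log2 change 1.54), CCND1 (1.53), CCNE2 (0.72) and CCND3 (0.70) rose as well. CCNE1 and CCNE2 are E2F targets, and CCNE2 shared 37.1% of its exon bases with other genes. CCNA2, the S and G2 cyclin whose kinase acts on E2F1 and FOXM1, had 84.6, 76.0 and 81.0 CPM in treated libraries, against 208, 202 and 200.8 CPM in controls (log2 change -1.34). The inhibitor genes CDKN2C (log2 change -1.90) and CDKN1B (-1.48) and the ubiquitin ligase gene SKP2 (-1.10) fell. CCNF, whose product binds B-MYB and helps degrade atypical E2F proteins, fell by 1.02 on the log2 scale.

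More of the listed targets of the E2F factors were higher than lower, and nearly all listed targets of FOXM1 and MYBL2 were lower. The lists were chosen with earlier results of these data known, so these counts are descriptions. Of 57 tested G1/S targets of E2F, 32 were higher and 12 lower, and 13 did not pass. The median of their log2 changes was 0.14, and 0.27 with library totals only; 32.3% of all genes tested were higher and 31.2% lower. PCNA, the sliding clamp, rose by 0.85 and GINS4, a subunit of the replicative helicase, by 0.71 on the log2 scale. Together with the cyclin E genes these were the largest rises of the list, and CCNE1 was the only member with a rise of at least 2-fold. Of the exon bases of GINS4, 23.6% lay in exons of other genes. GINS2 fell by 0.82 and UHRF1, which recruits the maintenance DNA methyltransferase, by 0.77 on the log2 scale. MCM6, a helicase subunit, fell by 0.74 and POLA1, the catalytic subunit of polymerase alpha, by 0.45 on the log2 scale. E2F1 and RBL1 are on this list as well.

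Of 70 G2/M targets of FOXM1, MYBL2 and MuvB, 66 were lower, 37 of them at least 2-fold, 2 were higher and 2 were not called. The median log2 change was -1.04, beside 0.02 for all genes tested, of which 4.62% were called lower by at least 2-fold. PLK1, a mitotic kinase that activates FOXM1, had 58.5, 57.0 and 61.8 CPM in treated libraries, against 324, 285 and 303 CPM in controls. Its log2 change was -2.36 (edgeR adjusted p = 1.23e-44). CCNB1, cyclin B1, had 105, 89.9 and 91.8 CPM in treated libraries, against 388, 374 and 386 CPM in controls (log2 change -2.0, edgeR adjusted p = 9.02e-42). CENPA, the centromeric histone, fell by 1.85 and DLGAP5, a spindle protein, by 1.76 on the log2 scale. The 2 members that rose were SKA1, of the outer kinetochore (log2 change 0.41, edgeR adjusted p = 1.99e-07), and BUB3, of the spindle checkpoint (0.19, edgeR adjusted p = 2.3e-04). SGO1 (log2 change 0.02) and CKS1B (-0.03) were not called. Summed over the list, the level was 7914 to 8308 TPM in treated libraries, against 15323 to 15407 TPM in controls. The corresponding sums of the G1/S list were 12529 to 13255 TPM in treated libraries, against 10630.2 to 10900 TPM in controls. PCNA alone was at 2257 ± 38.2 TPM in treated and 1193 ± 46.6 TPM in control libraries (SD, n = 3), a large part of that difference. Sums in TPM are not scaled by TMM.

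**Figure D4:**
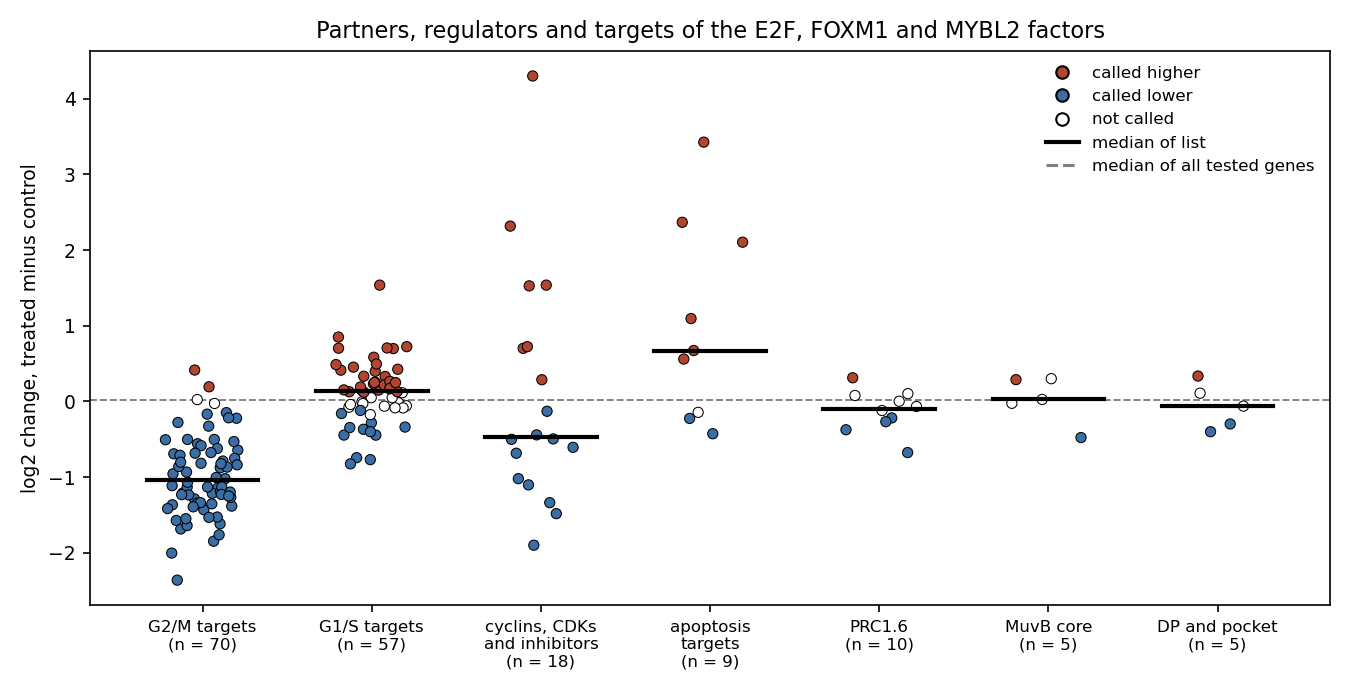
Log2 change (vertical axis, treated minus control) of the tested genes of 7 lists. Each point is a gene, the fill gives its call, thick lines are list medians and the dashed line the median of all genes tested; the G2/M targets centre at -1.04 and the G1/S targets at 0.14.

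Apoptosis genes described as E2F1 targets were higher in 6 of 9 tested and lower in 2, beside 32.3% higher and 31.2% lower over all genes tested. APAF1, the scaffold of the apoptosome, had 120.3, 122 and 117 CPM in treated cells, against 55.5, 57.2 and 55.3 CPM in controls (log2 change 1.10). TP73, a p53 relative, rose by 0.56 on the log2 scale. BBC3 (log2 change 3.43), PMAIP1 (2.37) and BCL2L11 (2.10), which encode BH3-only activators of apoptosis, rose more, and BBC3, PMAIP1 and APAF1 are p53 targets too. CASP9 (-0.43) and CASP8 (-0.22 on the log2 scale), which encode initiator caspases, fell. CASP8 was not called with library totals only (-0.10, edgeR adjusted p = 0.274). HRK had 19 counts in the treated libraries together and 0 in the controls and was not tested.

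Germline genes that E2F6 is known to silence, mostly from mouse, were near the floor of detection. SMC1B, a meiotic cohesin subunit, had 40, 21 and 27 counts in treated libraries, against 2, 4 and 2 counts in controls. It passed the filter on low counts only through the treated libraries, so no test is given for it. STAG3, another, had 50, 48 and 46 counts in treated libraries, against 13, 20 and 21 in controls (log2 change 1.16, edgeR adjusted p = 5.45e-04), with 32.3% of its exon bases in exons of other genes. SLC25A31 (12 counts over the treated libraries, 0 over the controls), TUBA3C (1 treated, 0 control) and TUBA3D (33 treated, 24 control) were too low to test.

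Of 10456 coding genes with a mean of 5 CPM or more, those whose pattern over the 6 libraries lay nearest to each member were found by the Euclidean distance of centred log2 CPM. For FOXM1 they were TMEM43 (distance 0.037) and MRTFA (0.058), and for E2F7 TAP1 (distance 0.081) and SERPINE2 (0.12). For E2F1 they were MBD4 (distance 0.054) and BRI3BP (0.062), for E2F2 ZC3H8 (0.057) and THAP1 (0.10), and for E2F3 HELLS (0.040) and AHR (0.052). For E2F4 they were SLC16A3 (distance 0.047) and GLI3 (0.049), and for E2F5 ITPRIPL1 (0.22) and PRELID2 (0.23). For E2F6 they were FTSJ3 (distance 0.042) and PARP2 (0.049), for E2F8 SEC11C (0.079) and LPAR2 (0.082), and for MYBL2 GTF2E1 (0.034) and EIF4A3 (0.034). With 2 groups of libraries, the distance mostly measures how alike the sizes of the changes are. HELLS is also on the G1/S list.

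The libraries held 17150259 to 20193957 counts, and replicate libraries differed from each other by more than counting error (chi-square per degree of freedom 2.84 to 3.77). The label of a heart muscle line was checked against its markers: of 16 cardiomyocyte markers 13 were too low to test, TNNI3 was at 0 in every library, and the contractile genes MYH6, MYH7, TNNT2 and ACTC1 had at most 9 counts in any library. GATA4 had 268 to 341 counts in treated and 290 to 347 counts in control libraries and was called lower (log2 change -0.33, edgeR adjusted p = 0.00636). That call was lost with library totals only (adjusted p = 0.0959), without treated replicate 3 (0.0689) and without control replicate 1 (0.0614). MEF2C had 32, 21 and 12 counts in treated and 4, 4 and 9 in control libraries, and NPPB had 3, 0 and 0 in treated and 18, 10 and 13 in control libraries. Each of these passed the filter through 1 group only, and they pointed in opposite directions. The summed level of the list was 14.7 to 21.98 TPM in treated libraries, against 21.8 to 26.4 TPM in controls. Of 12 fibroblast markers, 11 passed the filter in both groups. Of these, 10 were lower and none higher, beside 31.2% lower over all genes tested. VIM was not called, but was called higher with library totals only (0.10, edgeR adjusted p = 0.0375). TCF21 passed the filter only through the treated libraries and is given no call. The summed level of the 12 markers was 5905 to 6098 TPM in treated libraries, against 10522 to 11423 TPM in controls. Endothelial markers summed to 10.5 to 11.2 TPM in treated and 18.9 to 21.2 TPM in control libraries, with TEK lower and KDR called higher. The KDR call was lost in 5 alternatives, among them DESeq2 (0.77 on the log2 scale, adjusted p = 0.0682). PECAM1, CLDN5 and VWF passed the filter only through the treated libraries and are given no call, and CDH5 and EMCN were too low to test. Leukocyte markers summed to 5.82 to 5.91 TPM in treated and 3.07 to 4.97 TPM in control libraries, with PTPRC higher and CD14 not called. ITGAM (40 counts in the treated libraries together, 0 in the controls) and CD68 passed the filter only through the treated libraries and are given no call, and CD3E was too low to test. The part of these marker changes in the results above was not tested.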

How the data were processed

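Polyadenylated RNA of 6 unstranded TruSeq libraries was sequenced, per the labels' protocols. Per the file header, the authors deposited whole-number counts for each Ensembl gene beside its exon coordinates and length. The tools listed are featureCounts, Subread, STAR and SAMtools, and the build hg38 (GRCh38), per the submitters' processing notes. The sources used here do not state how reads in shared exons were counted. Symbols came from GENCODE 29 and current gene names (58179 of 58299 identifiers were in that release). Samples were grouped by the treatment label.

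Genes were filtered with filterByExpr (minimum count 10), normalised by TMM and tested with edgeR 4.0.16 in R 4.3.3 (glmQLFit, glmQLFTest), with the Benjamini-Hochberg threshold at 0.05. The SE is the log2 change over the square root of F. The fit was tested on simulated data. TPM used the deposited lengths. Promoter windows came from RefSeq (GRCh38.p14). Members and lists were chosen with earlier results of these data known. The rule for naming took all members, lists of at most 10 genes in full, the 4 largest rises and 4 largest falls among called genes of at least 5 CPM in longer lists, and the 2 nearest genes of each member; CCND3, CCNF, CCND2, CDKN1C, CDK2, SGO1, CKS1B, the cell type markers and the overlapping genes were added after their values were seen. Some genes of the lists are counted but not reported here by name. Alternatives were other scalings and filters, DESeq2 1.42.0, limma-voom (limma 3.58.1), a replicate block, each library left out and a threshold of 0.01. Other steps used Python 3.11.15.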

Additional observations from a re-analysis of the deposited data

How the results depend on the processing

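The calls of E2F1, E2F2, E2F3, E2F4, E2F5, E2F7, E2F8 and FOXM1 and their directions held in all 15 alternatives that were run. Of the 10 genes, E2F6 and MYBL2 changed their call. E2F6 was called higher with library totals only (log2 change 0.23). MYBL2 was called higher with upper-quartile factors (0.14), library totals only (0.21) and at least 1 CPM in 3 libraries (0.10). The cause was not tested. Leaving out each library gave 1.96 to 2.01 for E2F7, -0.81 to -0.74 for FOXM1 and -1.23 to -0.93 for E2F5. The replicate block gave 9653 called genes, against 9893 without it, and changed no call of a member; same-numbered treated and control libraries had correlations of their deviations of -0.10, -0.07 and -0.02, so the numbers were not taken to pair them. Higher genes were 63.8% of calls with library totals only and 50.8% with TMM. Over all alternatives, 62 to 66 G2/M targets were lower, and 27 to 36 G1/S targets were higher and 10 to 14 lower. Levels per length gave lower log2 ratios of treated over control with TMM library sizes than in TPM. For E2F7 the ratio was 1.99 against 2.06, for E2F6 0.10 against 0.17 and for MYBL2 0.09 against 0.15. The direction stayed the same for each member. Exon overlap gives a share and not another fit, so it has no alternative value. Counts of 38 to 98 per library limit the precision for E2F5.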
